A study of Mus musculus with 6 samples.

Results

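Complement and coagulation are the protein cascades of blood plasma that mark microbes for destruction and that seal wounds with fibrin, and most of their zymogens, cofactors and inhibitors are secreted by hepatocytes. The 38 listed genes cover the lectin pathway, the convertase components, the terminal components and the regulators of complement, the contact system, the vitamin K-dependent zymogens and anticoagulants, fibrinogen and its partners, thrombin-inhibiting serpins, fibrinolysis and 2 multi-ligand plasma glycoproteins. Of these, 36 were measured among 18193 genes, each by the brightest probe set that names that gene alone, and C3 and Cpb2 were not analysed here. The 36 fall into 14 complement genes and 22 genes of coagulation, fibrinolysis and the 2 multi-ligand glycoproteins.

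Livers came from male C57BL/6J mice aged 8 weeks in 3 groups of 2 arrays: Cnot3+/- mice without food for 24 h, wild-type mice without food for 24 h, and wild-type mice fed normal chow. Fasted mice were housed singly, and water was freely available. Housing of the fed mice is not stated here, so the fast and single housing cannot be told apart in the comparisons with fed liver. The Cnot3 protein belongs to CCR4-NOT, the complex that removes poly(A) tails from mRNAs. What the mutant Cnot3 allele lacks is not given in the labels, and no group combines Cnot3+/- with feeding, so genotype was compared in fasted liver alone. Arrays of a group are labelled as biological replicates, and 2 arrays a group limit the precision of every value.

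As background, the lectin pathway starts when mannose-binding lectins settle on a sugar surface and their partner proteases cleave complement proteins. The cascade then assembles convertases and ends in a pore built from the terminal components. Coagulation can start on a charged surface through factor XII, prekallikrein, kininogen and factor XI, and it runs through zymogens whose glutamate residues are carboxylated with vitamin K. Thrombin finally cuts fibrinogen into fibrin, which plasmin dissolves.

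Values are log2 levels made by RMA, a method that corrects background, normalises arrays and summarises each probe set. Array medians lay between 5.59 and 5.64, and replicate arrays correlated at 0.993 to 0.995 across genes. Every one of the 36 members was bright, with 6-array means between 10.21 and 14.51 where the highest value of any probe set was 15.43. A gene was said to change at a Benjamini-Hochberg adjusted p under 0.05 in limma's moderated test, adjusted over all 18193 genes. Hepatocyte markers (5 measured of 8) averaged between 14.90 and 14.91 in fasted Cnot3+/- liver, between 14.86 and 14.91 in fasted wild-type liver, and between 14.85 and 14.89 in fed liver. The brighter Cnot3 probe set differed by -0.01 between Cnot3+/- and wild-type fasted liver (95% confidence interval -0.34 to 0.31), so these arrays give no check of the genotype labels.

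Array 1 of each fasted group stood apart from array 2 in these genes. In fasted Cnot3+/- liver 32 of 36 members read higher on array 1, by a median of 0.22 (log2), and in fasted wild-type liver 31 of 36 did, by a median of 0.12. On the fed arrays 17 of 36 read higher on array 1, with a median of -0.02. Across all genes the corresponding medians were -0.04, -0.02 and -0.01. Control probe sets at the 3' and 5' ends of pyruvate carboxylase mRNA measure how evenly RNA was labelled along its length. The gap between them (3' minus 5', log2) was 4.12 and 2.81 in fasted Cnot3+/- liver, 2.67 and 1.87 in fasted wild-type liver, and 3.29 and 3.25 in fed liver. It was larger on array 1 than on array 2 in both fasted groups. So were the gaps of the Gapdh, actin and transferrin receptor controls. The Gapdh and actin gaps were also highest on Cnot3+/- array 1. The transferrin receptor gap was highest on fed array 1 (2.24, against 2.12 on Cnot3+/- array 1). Each member's deviation from its own 6-array mean had a median of 0.13 and -0.11 in fasted Cnot3+/- liver, -0.005 and -0.13 in fasted wild-type liver, and 0.06 and 0.08 in fed liver. Array 1 of the Cnot3+/- group was highest in the pyruvate carboxylase gap and in the members' deviation, and array 2 of the fasted wild-type group lowest. The part of the control gap in the results below was not tested.

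**Figure D1:**
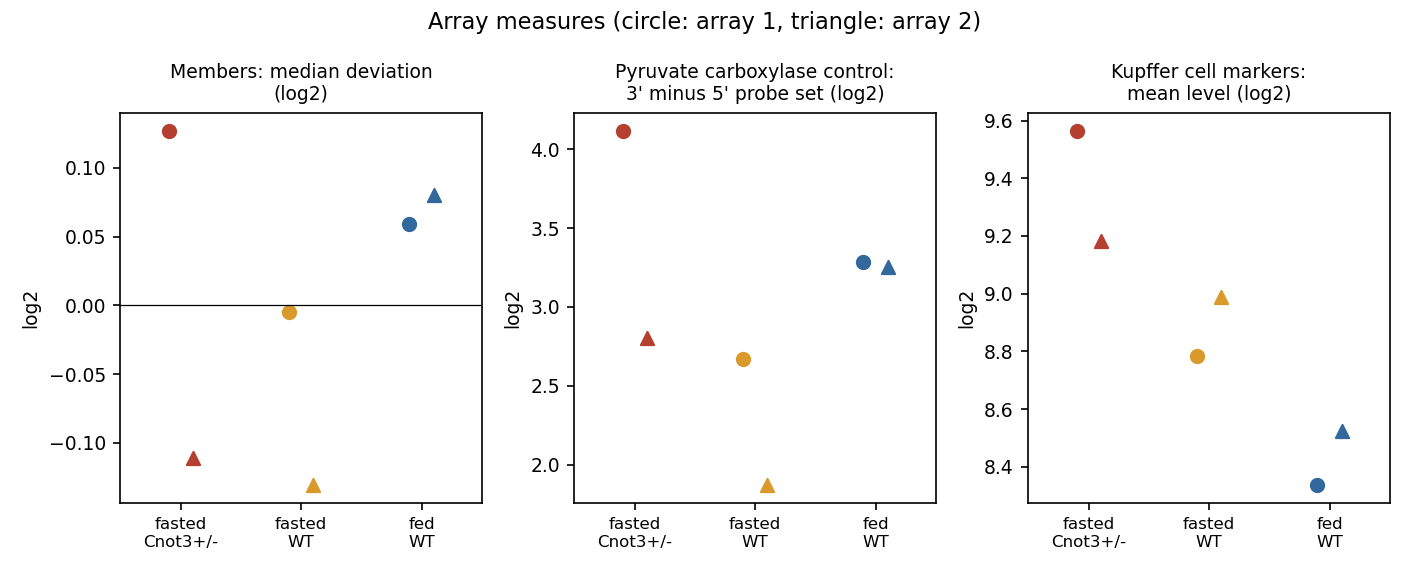
Array measures for the 2 arrays of each group, with circles for array 1 and triangles for array 2, all on log2 scales. The left panel gives the median deviation of the 36 members from their own 6-array means, the middle panel the gap between 3' and 5' control probe sets of pyruvate carboxylase, and the right panel the mean level of 11 Kupffer cell markers. Members deviate by 0.13 on Cnot3+/- array 1 and by -0.13 on fasted wild-type array 2, the arrays with the largest and smallest control gaps.

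In wild-type liver, the mRNAs of factor XI and of 2 genes of the lectin pathway were lower after a 24 h fast. That of protein S was higher, while prothrombin, fibrinogen, antithrombin and plasminogen mRNAs differed by at most 0.15 (log2). F11 fell 3.46-fold, Masp1 1.89-fold and Mbl2 1.76-fold, and Pros1 rose 1.52-fold. Of 36 members, 3 fell (8.33%) where 3.15% of all genes did, and 1 rose (2.78%) where 1.87% of all genes did. Of genes brighter than the median gene 5.11% fell and 3.39% rose. The median difference over the members was -0.13, against 0.02 over all genes and -0.02 over genes brighter than the median gene. Of 36 differences 26 were negative (72.2%), against 45.3% of all genes and 51.9% of the brighter genes. Leaving out fasted array 2 moved the members' median to -0.05 and leaving out fasted array 1 to -0.20. Set against the fed mean, 22 members were negative on fasted array 1 and 26 on fasted array 2. Fasted and fed arrays did not overlap in 19 members that were lower in fasted liver (52.8%, against 23.7% of all genes and 32.2% of genes brighter than the median gene). They did not overlap in 6 that were higher (16.7%, against 27.1% and 27.5%). Of the 4 members that changed, F11 alone passed with each of the 4 wild-type arrays left out in turn. The other 3 lost the call with any of them left out (adjusted p from 0.0534 to 0.0978 for Mbl2, from 0.1 to 0.177 for Pros1 and from 0.15 to 0.238 for Masp1). In liver tissue, fewer cells of a type and less RNA per cell cannot be told apart.

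**Figure D2:**
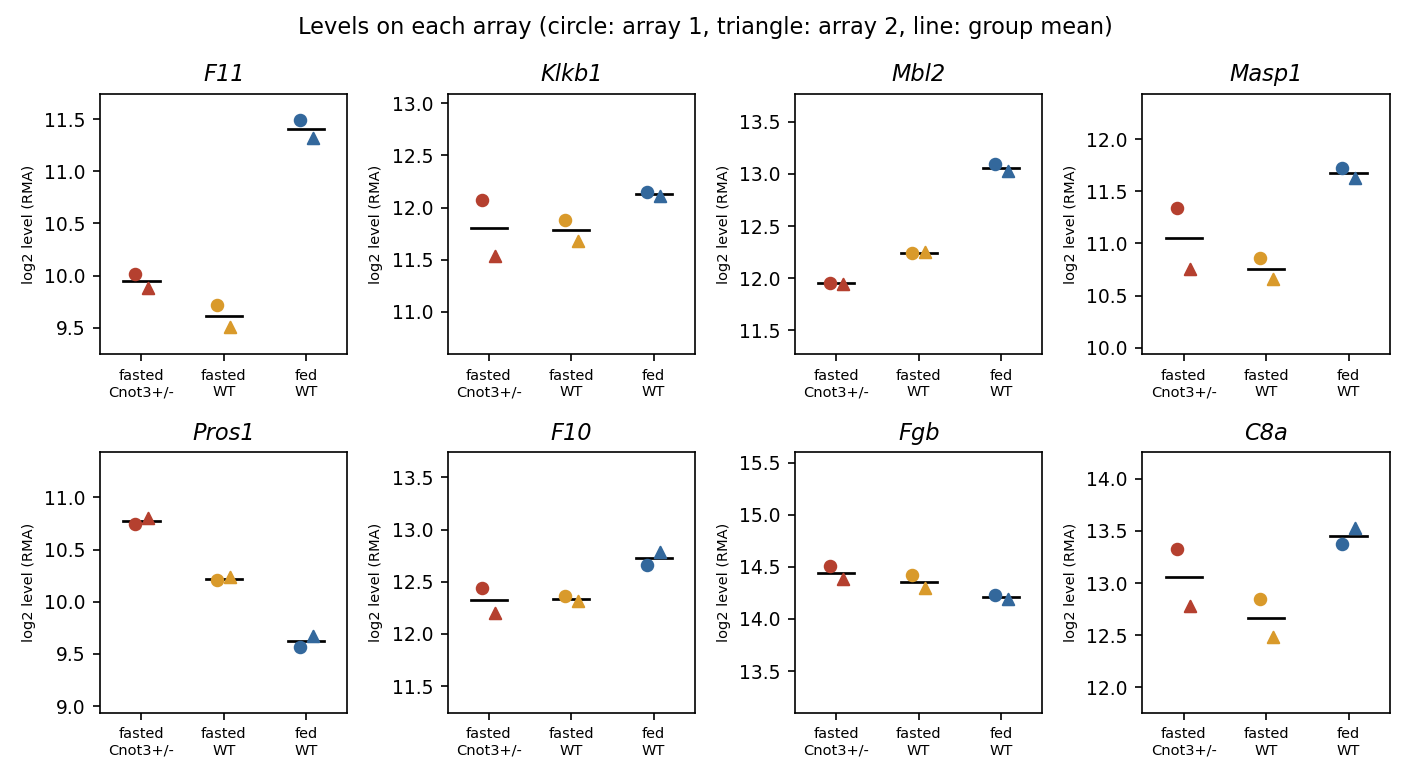
Log2 levels of 8 members on each array, with the group mean as a line, in fasted Cnot3+/-, fasted wild-type and fed wild-type (WT) liver. Every panel spans 2.5 log2 units. F11 lies near 9.5 to 10.0 on all 4 fasted arrays, against 11.32 and 11.49 on the fed arrays, while Pros1 is highest on the Cnot3+/- arrays and lowest on the fed arrays.

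The contact system held the largest difference. F11 encodes factor XI, a zymogen that activates factor IX. It read 9.72 and 9.50 in fasted wild-type liver, against 11.49 and 11.32 in fed wild-type liver. The groups lay more than 1.5 log2 units apart, a difference of -1.79 (SE 0.14, adjusted p = 0.00208). Klkb1, which encodes plasma prekallikrein, is a paralog of F11 and its next protein-coding neighbour on chromosome 8 in the GRCm38.p6 annotation. It read 11.88 and 11.68 in fasted liver, against 12.15 and 12.11 in fed liver. Its groups did not overlap either, but its difference of -0.35 (SE 0.19, adjusted p = 0.381) did not pass. Factor XII starts the contact system, and its gene F12 read 12.998 and 13.099 in fasted liver, against 12.670 and 12.750 in fed liver. That difference was positive, at 0.34 (SE 0.12, adjusted p = 0.183). Kng1, the gene of kininogen, differed by 0.07 on its brighter probe set and by -0.26 on the other.

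The 250 bases before the start of F11 and Klkb1 are shown because these neighbouring paralogs differed so unequally, and those of Mbl2 and Pros1 because both genes changed. Sequences are from RefSeq (GRCm38.p6), 5′ to 3′ on the gene's own strand. Capitals mark matches on either strand to motifs named for liver transcription factors: GTTAAT (an HNF1 half-site), CAAAGTCCA (HNF4), TTNNGCAA (C/EBP), GTAAACA (FoxO and FoxA) and TTCCNNGAA (STAT).
F11, chr8:45262032-45262281, minus strand: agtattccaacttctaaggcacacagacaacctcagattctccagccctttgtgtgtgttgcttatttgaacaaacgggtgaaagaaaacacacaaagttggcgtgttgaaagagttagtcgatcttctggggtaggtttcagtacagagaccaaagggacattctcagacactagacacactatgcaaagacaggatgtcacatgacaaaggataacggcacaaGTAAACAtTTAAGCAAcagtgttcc
Klkb1, chr8:45294836-45295085, minus strand: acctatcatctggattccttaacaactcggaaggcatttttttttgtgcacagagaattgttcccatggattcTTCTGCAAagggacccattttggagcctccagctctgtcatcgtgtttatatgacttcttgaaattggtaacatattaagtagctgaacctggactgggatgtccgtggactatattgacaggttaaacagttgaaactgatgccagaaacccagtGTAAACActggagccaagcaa
Mbl2, chr19:30232678-30232927, plus strand: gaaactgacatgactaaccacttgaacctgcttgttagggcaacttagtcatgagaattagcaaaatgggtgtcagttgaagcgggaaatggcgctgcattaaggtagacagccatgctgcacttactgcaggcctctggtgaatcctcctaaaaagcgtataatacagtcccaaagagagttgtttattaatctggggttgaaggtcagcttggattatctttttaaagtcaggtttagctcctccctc
Pros1, chr16:62854057-62854306, plus strand: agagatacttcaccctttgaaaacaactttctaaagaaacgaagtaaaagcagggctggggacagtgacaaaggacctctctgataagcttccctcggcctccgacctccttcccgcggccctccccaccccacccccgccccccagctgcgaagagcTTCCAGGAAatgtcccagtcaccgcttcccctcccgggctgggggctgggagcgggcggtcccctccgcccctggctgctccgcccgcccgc
F11 and Klkb1 each hold GTAAACA near the start, beginning 25 bases before it in F11 and 21 bases before it in Klkb1. In F11 it stands beside a C/EBP match that begins 17 bases before the start and does not overlap it. The window of Mbl2 holds none of these letters, and that of Pros1 holds a STAT match 92 bases before the start. A window was found for 28 of the 36 members, 29 windows in all, and Masp1 had none. GTAAACA stands in 2 of the 29 (6.9%), those of F11 and Klkb1, against 3.17% of 32851 windows of all genes. The HNF1 half-site stands in 8 (27.6%, against 6.43%), the C/EBP motif in 7 (24.1%, against 9.56%), the STAT motif in 5 (17.2%, against 4.06%) and the HNF4 motif in 0 (against 0.384%). These are matches of letters, given as a description.

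In the lectin pathway 2 of 4 genes fell, where 3.15% of all genes and 5.11% of genes brighter than the median gene did. Neither call held throughout: that of Mbl2 was kept in 9 of 13 alternatives and that of Masp1 in 6. Mannose-binding lectin C, encoded by Mbl2, recognises sugars on microbes. Mbl2 read 12.24 and 12.25 in fasted wild-type liver, against 13.09 and 13.02 in fed liver. The arrays of each group lay within 0.1 of each other, and the difference was -0.82 (SE 0.11, adjusted p = 0.0106). Masp1 encodes one of the proteases that mannose-binding lectins carry and that start the pathway. It read 10.86 and 10.65 in fasted liver, against 11.72 and 11.62 in fed liver, a difference of -0.92 (SE 0.20, adjusted p = 0.0466). All 5 of its probe sets differed downward, by 0.45 to 0.92. The dimmest read 4.82 and 4.86 in fasted liver, against 4.93 and 5.66 in fed liver. The next dimmest read 5.45 and 5.36 in fasted liver, against 6.14 and 5.60 in fed liver. Both lay near or under the array medians, which ran from 5.59 to 5.64. The mean of all 5 probe sets gave -0.56 and did not pass (adjusted p = 0.134). The call was also lost after cyclic loess (adjusted p = 0.0554) and after centring on brighter genes (0.0505). Mbl1, which encodes the other mannose-binding lectin of the mouse, differed by -0.31 (adjusted p = 0.447). Masp2 differed by 0.17 on its brighter probe set and by -0.27 on the other.

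The rest of the complement genes mostly had negative differences, down to -0.79, none of which passed. Over the 14 complement members 12 differences were negative (85.7%), with a median of -0.39. The negative shares were 45.3% over all genes and 51.9% over genes brighter than the median gene. Over the alternatives tried the complement counts ran from 11 to 13 and the medians from -0.47 to -0.30. Without probe sets shared between transcripts the count was 11 of 12 measured. Fasted and fed wild-type arrays did not overlap in 12 of the 14, 11 of them lower in fasted liver and 1 higher, and in 13 of the 22 other members, 8 lower and 5 higher. The shares over all genes were 23.7% lower and 27.1% higher, and over genes brighter than the median gene 32.2% and 27.5%. The complement members' median deviation was -0.05 and -0.24 on the fasted arrays, against 0.15 and 0.28 on the fed arrays, so array 2 of the fasted group carried more of the difference. The 3' to 5' gap of the pyruvate carboxylase control was also smaller on the fasted wild-type than on the fed arrays. So were the actin gap (0.58 and 0.43, against 0.61 and 0.62) and the transferrin receptor gap (1.98 and 1.74, against 2.24 and 2.10). The Gapdh gap overlapped, at -0.02 and -0.14 on the fasted arrays, against -0.02 and 0.001 on the fed arrays. The part of the control gaps was not tested.

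Terminal complement genes, whose products build the membrane pore, had lower values on both fasted wild-type arrays than on both fed arrays in 5 of 5, a state of 23.7% of all genes and 32.2% of genes brighter than the median gene. C8a, the gene of the C8 alpha chain, read 12.85 and 12.49 in fasted liver, against 13.38 and 13.53 in fed liver (difference -0.79, SE 0.21, adjusted p = 0.0843). It passed in the fit of the 2 wild-type groups alone (adjusted p = 0.0425). C6 read 11.53 and 11.42 in fasted liver, against 11.81 and 12.20 in fed liver (-0.53, SE 0.17, adjusted p = 0.148), and the fed arrays lay 0.39 apart. C8b, next to C8a on chromosome 4, differed by -0.64, and C9, the pore-forming subunit, by -0.57. C8g, the gene of the lipocalin-like C8 gamma chain on another chromosome, differed by -0.16.

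Among the convertase components, C2 read 10.47 and 10.29 in fasted liver, against 10.62 and 10.91 in fed liver (-0.38, SE 0.16, adjusted p = 0.242). Factor B, the protease of the alternative convertase, is encoded by Cfb, the neighbour of C2 on chromosome 17. Cfb read 12.86 and 12.72 in fasted liver, against 12.99 and 13.03 in fed liver (-0.22, SE 0.14, adjusted p = 0.466). The regulators differed in sign. C4bp, a cofactor that restrains the classical convertase, read 12.650 and 12.546 in fasted liver, against 12.996 and 13.009 in fed liver (-0.40, SE 0.15, adjusted p = 0.189). Serping1, the inhibitor of C1 and of kallikrein, read 13.53 and 13.44 in fasted liver, against 13.12 and 13.23 in fed liver (0.31, SE 0.12, adjusted p = 0.221). It was the complement member with the largest positive difference. Cfi, which degrades C3b, differed by -0.02.

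**Figure D3:**
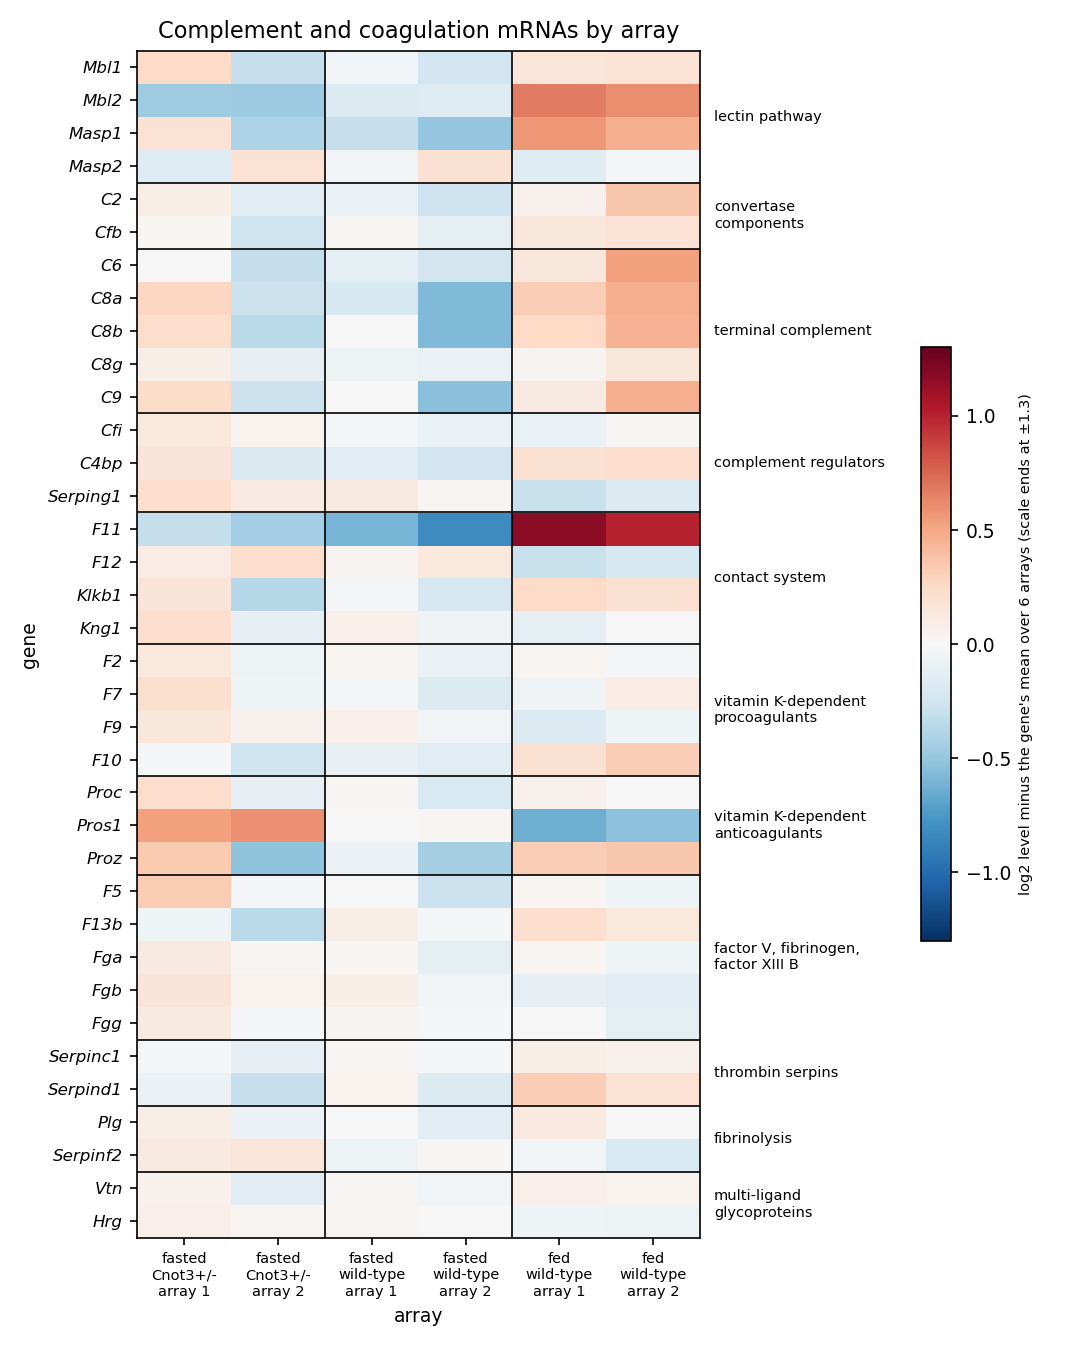
Log2 level of each of the 36 measured members on each array, minus the gene's mean over the 6 arrays, with rows grouped by role and columns by group. Red is above and blue below the gene's mean. F11, Mbl2 and Masp1 are red on the fed arrays and Pros1 is blue there, while the fibrinogen rows stay near white.

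Protein S stood out among the vitamin K-dependent proteins. Pros1 encodes protein S, the cofactor of activated protein C, and read 10.21 and 10.23 in fasted wild-type liver, against 9.57 and 9.68 in fed liver. Groups were well separated, with a difference of 0.60 (SE 0.11, adjusted p = 0.0329). Endothelial cells, megakaryocytes and macrophages also make protein S, so marker levels of these cells are given beside it. The summed linear level of 11 measured Kupffer cell markers (of 12 listed) was 7591 and 8250 in fasted wild-type liver, against 5368 and 6753 in fed liver. Of their differences 11 of 11 were positive and 0 past the test, where 54.7% of all genes and 48.1% of genes brighter than the median gene were positive. For 9 liver endothelial markers the sums were 5060 and 5094 in fasted liver, against 4618 and 4550 in fed liver. Their differences were mixed, 6 positive and 3 negative (median 0.07), with Lyve1 past the test and higher in fasted liver. For 6 measured megakaryocyte and platelet markers (of 7) they were 475 and 464 in fasted liver, against 502 and 445 in fed liver, and Ppbp and Gp1bb averaged under the array median in both groups. The Kupffer and endothelial sums were higher with Pros1 and the platelet sums were not, and the part of these cells in the Pros1 difference was not tested.

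The other vitamin K-dependent genes did not pass. Factor X is the point where the routes to thrombin meet, and F10 read 12.36 and 12.31 in fasted liver, against 12.66 and 12.78 in fed liver (-0.39, SE 0.13, adjusted p = 0.165). Its dimmer probe sets differed by -0.63 and -0.71. F9, the haemophilia B gene, read 12.65 and 12.55 in fasted liver, against 12.40 and 12.53 in fed liver (0.14, SE 0.12, adjusted p = 0.626). F2, the prothrombin gene, differed by -0.04, and F7, the partner of tissue factor, by -0.13. Protein C, which cuts factors V and VIII, is encoded by Proc, and this gene differed by -0.12. Proz, the gene of protein Z, differed by -0.59 (adjusted p = 0.294), with array values of 11.07 and 10.71 in fasted liver, against 11.47 and 11.49 in fed liver. F7, F10 and Proz are consecutive protein-coding genes on chromosome 8, and their differences of -0.13, -0.39 and -0.59 had 1 sign.

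Fibrinogen, the substrate of the clot, was measured by a probe set for each chain. Fgb read 14.42 and 14.30 in fasted liver, against 14.23 and 14.19 in fed liver (0.15, SE 0.12, adjusted p = 0.596), and the groups did not overlap. Fga and Fgg differed by -0.04 and 0.06. The 3 chain genes are consecutive on chromosome 3. F13b, the carrier subunit of the fibrin-crosslinking factor XIII, read 12.38 and 12.28 in fasted liver, against 12.53 and 12.45 in fed liver (-0.16, SE 0.14, adjusted p = 0.627). F5, the cofactor of factor Xa, differed by -0.13 on its brighter probe set and by 0.05 on the other. Confidence intervals bounded the 3 fibrinogen differences between -0.32 and 0.43.

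None of the genes of inhibitors, fibrinolysis and the multi-ligand glycoproteins passed, and their differences ran from -0.33 to 0.09. Heparin cofactor II, a thrombin inhibitor, is encoded by Serpind1, which read 12.74 and 12.52 in fasted liver, against 13.02 and 12.89 in fed liver (-0.33, SE 0.14, adjusted p = 0.274). Serpinc1, the antithrombin gene, read 14.50 and 14.46 in fasted liver, against 14.56 and 14.55 in fed liver (-0.07, SE 0.11, adjusted p = 0.805). Both fasted arrays lay under both fed arrays for these serpin genes. Plasminogen mRNA (Plg) read 14.36 and 14.22 in fasted liver, against 14.48 and 14.35 in fed liver (-0.13, SE 0.13, adjusted p = 0.68). The plasmin inhibitor gene Serpinf2 read 13.22 and 13.30 in fasted liver, against 13.25 and 13.09 in fed liver (0.09, SE 0.12, adjusted p = 0.776). Fasted and fed arrays overlapped for Plg and for Serpinf2. Vitronectin, which binds the terminal complement complex, is encoded by Vtn, which read 14.04 and 13.99 in fasted liver, against 14.09 and 14.07 in fed liver (-0.07, SE 0.12, adjusted p = 0.847). Hrg, the histidine-rich glycoprotein gene, differed by 0.08. Hrg read 14.22 and 14.20 in fasted liver, against 14.14 and 14.13 in fed liver, a gap without overlap that did not pass (SE 0.11, adjusted p = 0.794).

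The size of the fasting difference went with the level of the gene. The 8 members with a mean level of 14 or more (F2, Fga, Fgb, Fgg, Serpinc1, Plg, Vtn and Hrg) differed by 0.04 to 0.15 in either direction, with a median of 0.07. The 8 members between 13 and 14 had a median of 0.14, the 10 between 12 and 13 a median of 0.32, and the 10 under 12 a median of 0.56, with differences up to 1.79. Of the 4 members that changed, 3 had a mean level under 12 and 1 between 12 and 13. Levels of different probe sets are not amounts of mRNA, and whether signal near the top of the scale is compressed on these arrays was not tested.

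**Figure D4:**
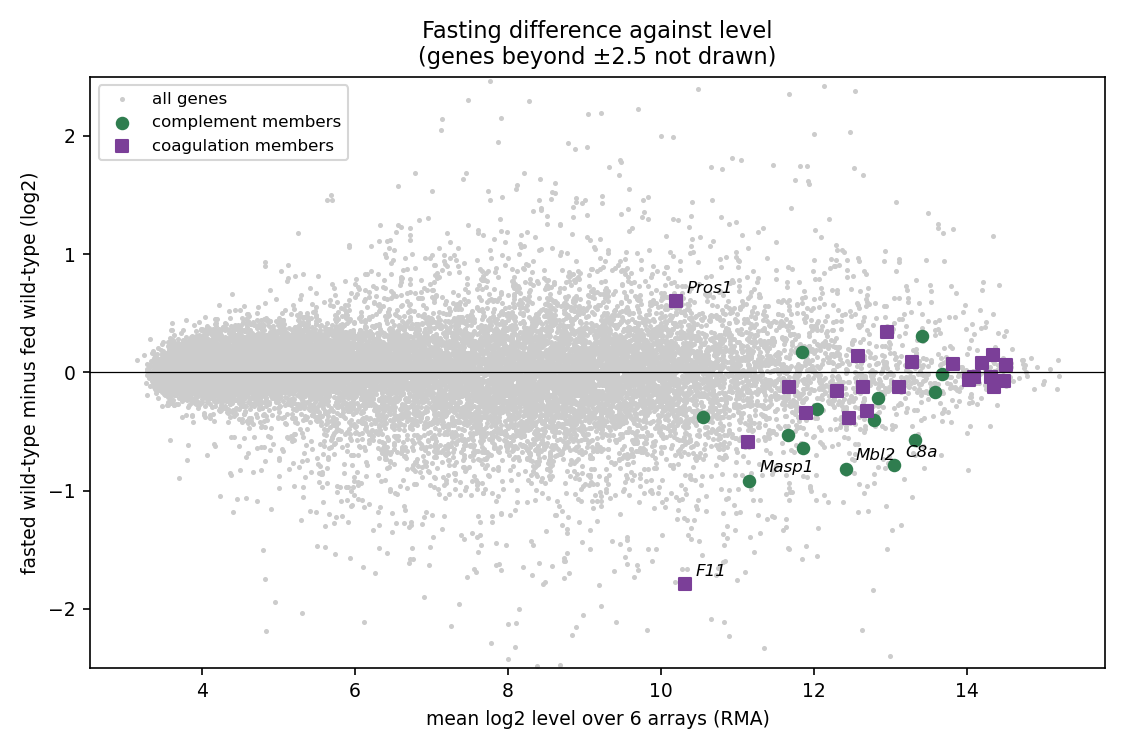
Difference between fasted and fed wild-type liver (log2, vertical axis) against the mean log2 level over 6 arrays (horizontal axis) for all genes in grey and the 36 members in colour. Members with a mean of 14 or more lie within 0.15 of the zero line, while F11 lies at -1.79 and Pros1 at 0.60. Genes beyond 2.5 log2 units in either direction are not drawn.

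In fasted liver, no member changed between Cnot3+/- and wild-type mice. Under limma's test 0 of 36 members passed, as did 0% of the 18193 genes. At an unadjusted p under 0.05 there were 3 members (Pros1, Mbl2 and F11) and 1011 genes. With a variance trend 0 members and 0 genes passed at an adjusted p under 0.05. Over the members 28 of 36 differences were positive (77.8%), against 60.1% of genes brighter than the median gene and 49.6% of all genes. The median over the members was 0.08, against 0.04 over the brighter genes and -0.002 over all genes. The members' median was carried by array 1. Against the fasted wild-type mean, 31 of 36 members were positive on Cnot3+/- array 1, with a median of 0.17, and 17 of 36 on array 2, with a median of -0.01. Without Cnot3+/- array 2 the fitted median was 0.17, without array 1 it was -0.01, without fasted wild-type array 1 it was 0.13, without fasted wild-type array 2 it was 0.02, and after centring on brighter genes it was 0.01. The confidence intervals of all 36 members lay inside a 2-fold change in either direction, from -0.55 to 0.88 at their widest. Groups did not overlap in 6 members that were higher on both Cnot3+/- arrays (16.7%), where 17.5% of all genes were, and in 2 that were lower (5.56%), where 18.5% of all genes were. The shares over genes brighter than the median gene were 23.3% higher and 12.2% lower.

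Of the 6 members nearest to a genotype difference, Pros1 and Mbl2 had the closest replicates. Pros1 read 10.74 and 10.80 in fasted Cnot3+/- liver, against 10.21 and 10.23 in fasted wild-type liver. That is a difference of 0.55 (SE 0.11, 95% confidence interval 0.28 to 0.82, adjusted p = 0.863), and leaving out any 1 array kept it between 0.52 and 0.58. Kupffer cell markers summed to 12828 and 9238 in Cnot3+/- liver, against 7591 and 8250 in fasted wild-type liver, so array 1 lay further from the wild-type sums. Of their differences 11 of 11 were positive and 0 past the test, where 49.6% of all genes and 60.1% of genes brighter than the median gene were positive. Endothelial markers summed to 4119 and 4914 in Cnot3+/- liver, against 5060 and 5094 in fasted wild-type liver. The part of these cells in the Pros1 difference was not tested. Mbl2 read 11.95 on both Cnot3+/- arrays, against 12.24 and 12.25 on the fasted wild-type arrays (-0.29, SE 0.11, adjusted p = 0.863). F11 read 10.02 and 9.88 in Cnot3+/- liver, against 9.72 and 9.50 in fasted wild-type liver (0.33, SE 0.14, adjusted p = 0.863), and all 4 arrays stayed far under the fed level.

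The remaining 3 of these 6 had replicates that lay further apart. F5 read 12.98 and 12.64 in fasted Cnot3+/- liver, against 12.64 and 12.37 in fasted wild-type liver (0.30, SE 0.16, adjusted p = 0.865). C8a read 13.33 and 12.78 in Cnot3+/- liver, against 12.85 and 12.49 in fasted wild-type liver (0.39, SE 0.21, adjusted p = 0.865). F13b read 12.25 and 11.96 in Cnot3+/- liver, against 12.38 and 12.28 in fasted wild-type liver (-0.23, SE 0.14, adjusted p = 0.865). Each of these differences depended on single arrays. Without Cnot3+/- array 1 they were 0.13 for F5, 0.12 for C8a and -0.38 for F13b, and without Cnot3+/- array 2 they were 0.47 for F5, 0.66 for C8a and -0.09 for F13b. Without fasted wild-type array 2 they were 0.17 for F5 and 0.21 for C8a. All 5 terminal complement genes had positive genotype differences, from 0.03 to 0.39, and in each of them the arrays of the groups overlapped. The fasted wild-type arrays behind these differences are also those of the fasting comparison. The fibrinogen chains differed by 0.04 to 0.12. Of 8 members with several probe sets, 5 (F10, Masp1, Masp2, Proz and Vtn) had probe sets of opposite sign for genotype. For Proz the brighter probe set gave 0.16 and the other -0.56. For Masp1 the dimmest probe set gave -0.09 and the others were positive.

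**Figure D5:**
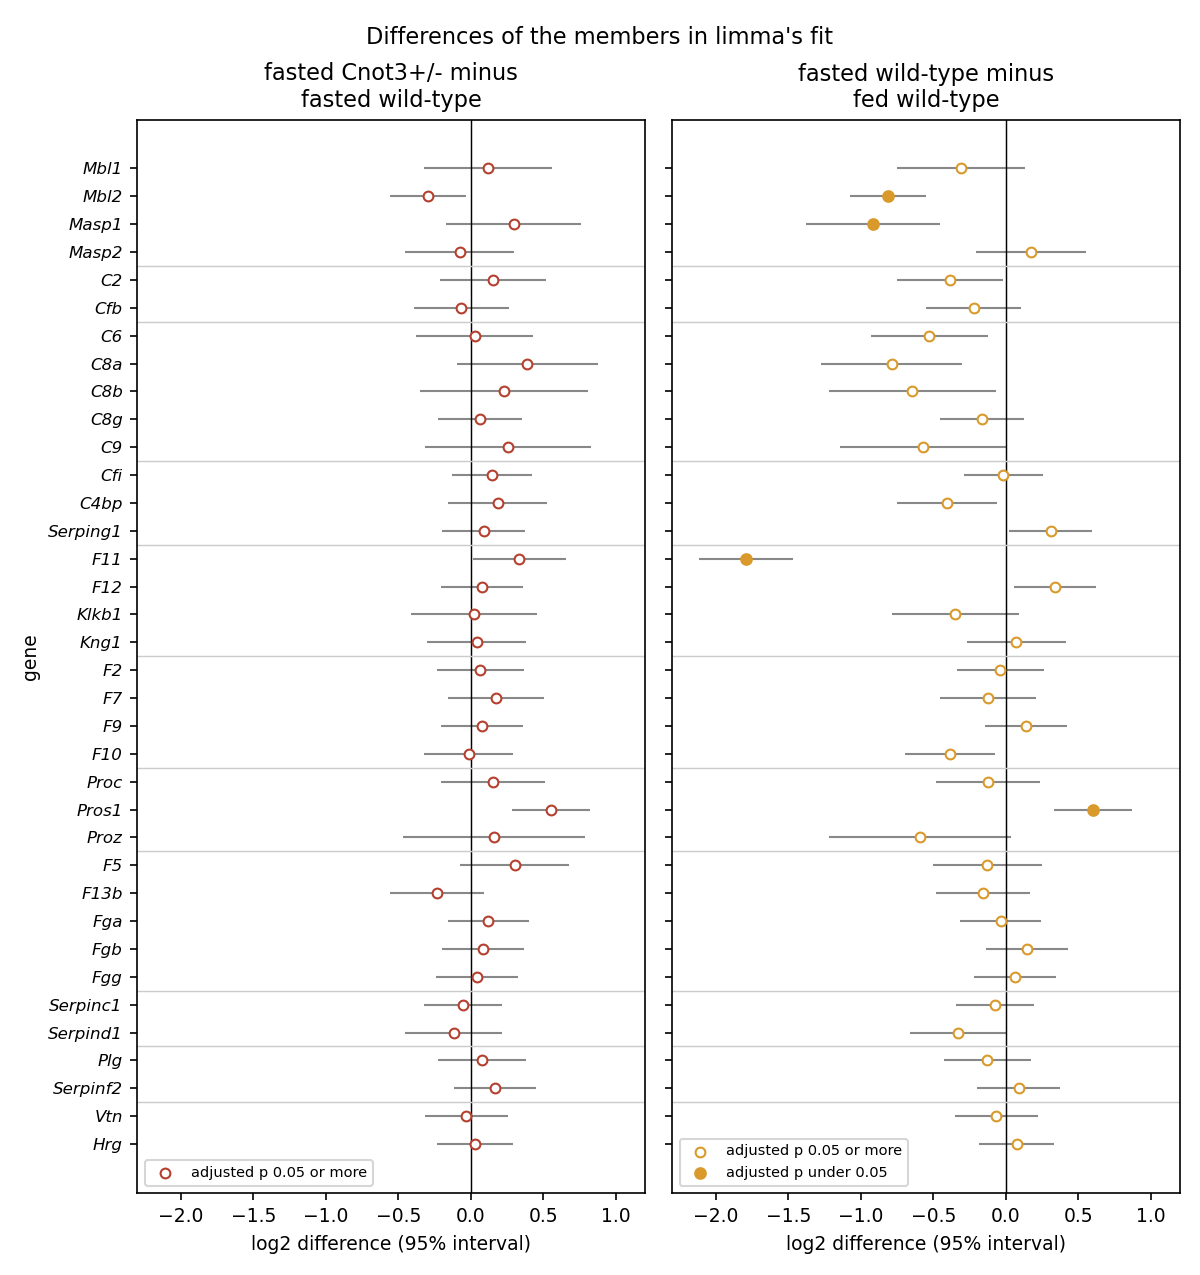
Log2 differences of the 36 members with 95% confidence intervals, for fasted Cnot3+/- minus fasted wild-type liver (left) and fasted wild-type minus fed wild-type liver (right). Filled points have an adjusted p under 0.05, and grey lines separate the roles. No point is filled on the left, where Pros1 at 0.55 is highest and Mbl2 at -0.29 lowest, and 4 are filled on the right.

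Set against fed wild-type liver, fasted Cnot3+/- liver had 2 members that fell and 1 that rose. In this comparison 5.56% of the members fell and 2.78% rose. The shares were 3.68% and 3.88% over all genes, and 6.11% and 6.82% over genes brighter than the median gene. The comparison shares its fed arrays with the fasting comparison and its Cnot3+/- arrays with the genotype comparison, so its values are given beside theirs. F11 read 10.02 and 9.88 in fasted Cnot3+/- liver, against 11.49 and 11.32 in fed wild-type liver (-1.46, SE 0.14, adjusted p = 0.00254), a 2.75-fold fall. Mbl2 fell 2.16-fold (-1.11, SE 0.11, adjusted p = 0.00288). Pros1 rose 2.22-fold (1.15, SE 0.11, adjusted p = 0.00286). All 3 passed with any of the 4 arrays left out and under each of the other alternatives. Masp1 read 11.34 and 10.76 in Cnot3+/- liver, against 11.72 and 11.62 in fed liver, and its difference of -0.62 did not pass (adjusted p = 0.12). It passed without Cnot3+/- array 1. With a variance trend F12 and Serping1 passed as well, both positive at 0.41 and 0.40. With the mean over probe sets Proz passed as well, with a lower level in Cnot3+/- liver. For Pros1 the Kupffer marker sums beside it were 12828 and 9238 in Cnot3+/- liver, against 5368 and 6753 in fed liver. Of the 11 markers 6 rose, against the 3.88% of all genes.

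Other genes of the cascades were described from lists that hold no member. Of 20 measured complement genes outside the list (of 26), 0 passed for fasting (median 0.06) and 0 for genotype (median 0.10), with 4 at an unadjusted p under 0.05 in each comparison. Of all 18193 genes, 3447 had such a p for fasting and 1011 for genotype. Fcna, the gene of ficolin A, a recognition protein of the lectin pathway, differed by 0.48 on fasting (SE 0.11, adjusted p = 0.0597), and C1qb by 0.55 (SE 0.16, adjusted p = 0.104). In fasted Cnot3+/- against fed wild-type liver 5 rose and 0 fell, where 3.88% of all genes rose and 3.68% fell. These were the C1q chain genes C1qa (0.84), C1qb (1.03) and C1qc (0.86), the properdin gene Cfp (1.02) and Fcna (0.58). The 3 C1q genes are also on the Kupffer cell marker list.

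Coagulation genes outside the list were counted in the same way. Of 20 measured (of 23), 0 passed for fasting (median 0.04, 5 at an unadjusted p under 0.05) and 0 for genotype (median -0.04, 1 at an unadjusted p under 0.05). Tfpi2, a Kunitz-type protease inhibitor, differed by -0.56 on fasting (adjusted p = 0.0658) and F2r, the thrombin receptor, by -0.63 (adjusted p = 0.0691). In fasted Cnot3+/- against fed wild-type liver both fell, by 0.86 and 0.93, as did Habp2, a plasma protease that binds hyaluronan, by 1.10. There 3.68% of all genes fell. Habp2 read 8.81 and 9.28 in Cnot3+/- liver, 9.57 and 9.90 in fasted wild-type liver, and 10.15 and 10.13 in fed liver, with a genotype difference of -0.69 that did not pass (adjusted p = 0.863).

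Among 7 genes of the vitamin K cycle, carboxylation and factor export, 1 fell on fasting and 0 rose (median -0.09). The shares over all genes were 3.15% and 1.87%. Lman1 encodes the receptor that carries factors V and VIII out of the endoplasmic reticulum. It read 12.23 and 12.36 in fasted wild-type liver, against 13.07 and 12.98 in fed liver (-0.73, SE 0.13, adjusted p = 0.0231). Ggcx encodes the carboxylase that modifies all vitamin K-dependent factors and differed by -0.42 on fasting (adjusted p = 0.211). Genotype gave 0 calls here (median -0.14, 0 at an unadjusted p under 0.05). In fasted Cnot3+/- against fed wild-type liver Lman1 and Ggcx fell, by 0.85 and 0.74, and Aifm2, a vitamin K reductase, rose by 0.96. There 3.68% of all genes fell and 3.88% rose. Ggcx read 8.38 and 8.70 in Cnot3+/- liver, against 9.23 and 9.32 in fed liver.

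Regulators known to act on liver plasma protein genes differed in sign. Of 12 measured (of 13), 1 rose and 2 fell on fasting (median 0.07), where 1.87% of all genes rose and 3.15% fell. Cebpd, a C/EBP factor of the acute phase response, rose by 2.23 (SE 0.42, adjusted p = 0.0305), with 10.34 and 10.28 in fasted wild-type liver, against 8.80 and 7.36 in fed liver, where the arrays lay far apart. Foxa2, a forkhead factor of hepatocytes, fell by 0.89 (SE 0.18, adjusted p = 0.037). Nr3c1, the glucocorticoid receptor gene, fell by 0.63 (SE 0.13, adjusted p = 0.0391). Genotype gave 0 calls (median -0.05, 2 at an unadjusted p under 0.05), with Stat3, which carries interleukin-6 signals, at 0.47 (adjusted p = 0.863) and Il6ra, its receptor chain, at 0.73 (adjusted p = 0.863). In fasted Cnot3+/- against fed wild-type liver the same 3 genes passed, Cebpd up by 2.64 and Foxa2 and Nr3c1 down by 1.07 and 0.64. The shares over all genes there were 3.88% up and 3.68% down.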

How the data were processed

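RMA summaries from 6 Affymetrix mouse arrays, on a log2 scale, were deposited, as named without a version in the submitters' processing notes, and were used with no further scaling. Per the labels' protocols, 10 ug of total liver RNA went into biotin-labelled cRNA. The table holds 45101 probe sets, 64 of them controls, and 34945 name 1 gene. For each of 18193 genes the probe set with the highest 6-array mean stands for the gene.

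A single limma model (version 3.58.1, R 4.3.3) held the means of the 3 groups (residual df 3, prior df 4.24), with Benjamini-Hochberg adjustment over all genes in each comparison. SE is the moderated standard error, and intervals are at 95%. The model was tested on simulated data. The members and lists were chosen with earlier results of these data known. Array values, SE and adjusted p are given for members past the test, otherwise for up to 2 members a role with the smallest p, and for the 6 with the smallest genotype p. Array values of Klkb1, F12 and Proz were added after their values were seen. Markers of the erythroid, neutrophil, lymphocyte and adipocyte lineages had 0 genes past the test in any comparison. On fasting the stellate list (7 measured) had 1 up and 3 down and the exocrine pancreas list (4 measured) 1 down. The shares over all genes were 1.87% up and 3.15% down. The alternatives were the choice of probe set, the variance prior, scaling, a filter on low values, the groups fitted, the replicate number as a block and leaving out each array. The count and median of the complement members under the alternatives were added after seeing the data. Promoter windows are from RefSeq (GRCm38.p6). Python 3.11.15 and matplotlib 3.10.9 drew the figures.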

Additional observations from a re-analysis of the deposited data

How the results depend on the processing

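With single arrays left out, the number of members that changed on fasting was 1 in every case (F11), against 4 with all arrays, and the number of all genes ran from 137 to 458, against 913. For fasted Cnot3+/- against fed wild-type liver 3 to 4 members and 597 to 929 genes changed, against 3 and 1375. Between genotypes 0 members and 0 to 2 genes changed. A group left with 1 array was taken to vary like the others. In the other alternatives 3 to 5 members changed on fasting. A variance trend raised the members changed in fasted Cnot3+/- against fed wild-type liver to 5, and fitting those 2 groups alone lowered the genes changed to 857, while for fasting the fit of 2 groups raised them to 1033. Of 29 named results 7 had passed, and 76 of their 91 alternative values kept the call. The 15 losses belong to 3 fasting results, those of Mbl2, Pros1 and Masp1. Among the named results that had not passed 1 gained the call, and 0 of all 375 values of the named results reversed. The median over the members did change sign in 2 comparisons. For genotype it went from 0.08 to -0.01 without Cnot3+/- array 1. For fasted Cnot3+/- against fed wild-type liver it went from -0.10 to 0.002 without Cnot3+/- array 2. The cause of these losses and sign changes was not tested. The 2 arrays of each group limit the differences that can be detected.

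Same-numbered arrays share a number and no stated pairing. The deviations of same-numbered arrays correlated over all genes at 0.454 between the fasted groups, -0.009 between Cnot3+/- and fed, and 0.045 between fasted and fed wild-type arrays. Over the 36 members these values were 0.825, -0.127 and -0.211. With the replicate block, 4 members changed on fasting, 3 in fasted Cnot3+/- against fed wild-type liver and 0 between genotypes, and the genes changed numbered 1206, 1708 and 0.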
